A study of Mus musculus with 8 samples.

Results

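Gene expression was compared between aortas labelled as Tet2 knockout and wild-type (WT) aortas, all from mice given vitamin D (VitD). The genes described are those that reached at least 1 CPM (counts scaled to library size) in at least 2 of the 4 VitD libraries. This rule kept 14177 of 48587 gene symbols, of which 28001 had a count in any of the 8 libraries of the study. At the edge of the rule, Alkbh3os1 was just inside with a second-highest level of 1.03 CPM and Apoa2 just outside with 0.997 CPM.

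Poly-A enriched RNA of the whole aortic tree was sequenced in 2 libraries per group. WT_VitD came from litter controls given VitD and Tet2KO_VitD from mice with a knockout of Tet2 restricted to vascular smooth muscle. Both were compared here, and the matching WT_vehicle and Tet2KO_vehicle groups, 2 libraries each, are used only as reference levels and for the estimate of spread. The labels used here give neither the Cre driver, the deleted exon, the age and sex of the mice, nor the dose and duration of VitD, and they do not say whether WT mice carried Cre. Whether 2 libraries of 1 group stem from different animals is not stated, so the tests measure the variation among libraries only, and it may be technical.

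TET2 oxidises 5-methylcytosine in DNA, a step towards removal of the methyl mark at CpG sites, and in smooth muscle it is known for its part in keeping the contractile state. High doses of vitamin D raise calcium and phosphate in the blood and are a standard way to produce mineral deposits in the arterial media of rodents. Smooth muscle cells of calcified arteries are known to lose contractile genes and gain genes of bone and cartilage, while inhibitors such as matrix Gla protein and osteoprotegerin oppose mineral growth.

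The libraries did not fall into 2 even pairs, and this bears on every result. Library numbers in the labels lie in a lower range (5 libraries) and a higher range (3 libraries). The labels do not call these ranges batches. Both WT_VitD libraries and Tet2KO_VitD 1 lie in the higher range, while Tet2KO_VitD 2 lies in the lower range with all vehicle libraries, so for Tet2KO_VitD 2 the knockout label and the number range cannot be told apart. Ribosomal protein genes took 5.41% and 5.51% of counts in WT_VitD, 4.85% in Tet2KO_VitD 1 and 2.57% in Tet2KO_VitD 2, against 2.1% to 2.57% in vehicle. Total counts were 16047635 and 18197924 in WT_VitD and 16250370 and 22332149 in Tet2KO_VitD.

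Tet2KO_VitD 1 also stood apart from every other library of the study. With a minimum level of 5 CPM, 22 genes in this library lay more than 4-fold below the lowest level seen in the other 7 libraries. In any other library 0 to 3 genes did so. The 22 included all 8 fitted genes whose symbols start with Rrp, which act in ribosomal RNA processing. For the mitochondrial ribosomal RNA mt-Rnr2, 99 reads were counted in Tet2KO_VitD 1 against 8664 to 22346 in each other library. These genes were chosen after their values were seen and are described with the results for that library alone. With the same minimum, WT_VitD 2 stood above all other libraries by more than 4-fold in 11 genes, among them the fast skeletal muscle genes Myh4, Atp2a1, Actn3 and Pvalb. WT_VitD 1 did so in 4 genes, Gm10800, Gm23935, Rgs9 and Rn18s-rs5.

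Tet2 itself did not have a lower level in the libraries labelled as knockout. Its level was 18.3 and 20 CPM in WT_VitD, 26.6 and 37.6 CPM in Tet2KO_VitD, and 32.2 to 42 CPM in the 4 vehicle libraries. Both knockout libraries were thus above both WT libraries, and the fitted log2 difference (Tet2KO minus WT throughout) was 0.74 with a standard error (SE) of 0.213 (1.67-fold, adjusted p = 0.457). The count covers the whole gene (chr3:133463679-133545139, minus strand, mm10), so reads outside a deleted part and reads from cells other than smooth muscle enter it. Its level therefore neither bears out nor refutes the label, and directions below refer to libraries labelled as knockout.

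Tet1, Tet3 and Ogt were likewise higher in both knockout libraries than in both WT libraries. Tet1 was at 4.7 and 2.89 CPM in WT_VitD and 5.09 and 7.13 CPM in Tet2KO_VitD, and Tet3 at 46.9 and 47.1 CPM against 49.9 and 63.3 CPM. Ogt, the O-GlcNAc transferase that partners TET proteins, was at 132 and 129 CPM against 172 and 216 CPM. None of these passed the threshold, with adjusted p-values from 0.467 (Ogt) to 0.589 (Tet1). Of the 16 genes listed for TET enzymes and DNA methylation, 7 were higher in both knockout libraries than in both WT libraries and 3 lower, where 22.2% and 22.9% of all genes described were so. Each such count below is to be read against these shares, which themselves changed with exon length. Tet2, Tet1, Tet3 and Ogt (16870, 15457, 16695 and 8045 bases) belong to the longest of 4 length classes. In that class 38.9% of genes were higher and 7.07% lower in both knockout libraries.

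Across all 14177 genes, no difference passed an adjusted p of 0.05 in edgeR's quasi-likelihood test, so 0% were called in either direction. The smallest adjusted p was 0.16. At an unadjusted p under 0.05, 813 genes were higher (5.73%) and 727 lower (5.13%) in Tet2KO_VitD. Limma voom with quality weights also called 0 genes, whereas the DESeq2 Wald test called 39 of the genes higher and 47 lower. The count changed when single libraries were left out. Without Tet2KO_VitD 1, 344 of the genes passed as higher and 306 as lower, and without Tet2KO_VitD 2, 16 passed, all lower. Leaving out WT_VitD 1 gave 8 and leaving out WT_VitD 2 gave 3, again all lower. In such fits the lone library is assumed to vary like the other groups.

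The position of the 4 libraries relative to each other was uneven across genes. Both knockout libraries lay above both WT libraries in 3144 genes (22.2%) and below both in 3247 (22.9%), 6391 in all (45.1%). The knockout libraries lay on opposite sides of both WT libraries in 3113 genes (22%), and in the remaining 4673 (33%) at least 1 of them was within the WT range. Differences of over 1 on the log2(CPM + 0.5) scale from the WT_VitD mean numbered 150 up and 324 down in Tet2KO_VitD 1, but 680 up and 724 down in Tet2KO_VitD 2. Between the WT_VitD libraries themselves, 129 genes were higher and 234 lower by that much in library 1.

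The genes with the smallest p-values among those without overlap are given next as values, and none was called by edgeR. Of the 10 leading genes in each direction, DESeq2 called all except Slc25a27 (adjusted p = 0.0789). Slc24a4, a potassium-dependent sodium-calcium exchanger, had the smallest p of the higher genes. It was at 1.46 and 1.08 CPM in WT_VitD and at 9.07 and 8.75 CPM in Tet2KO_VitD, with 4.23 to 6.46 CPM in the vehicle libraries. The knockout libraries were close to each other and stood above all 6 others, and the WT_VitD libraries were the lowest. The log2 difference was 2.81 with an SE of 0.345 (7.03-fold, adjusted p = 0.16), and DESeq2 called it (adjusted p = 8.7e-07).

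Fgf2, basic fibroblast growth factor, a mitogen of smooth muscle, was at 56.4 and 56.9 CPM in WT_VitD and 140 and 159 CPM in Tet2KO_VitD. The vehicle libraries spanned 51.2 to 87.1 CPM, so the 2 knockout VitD libraries were the highest of the study. The log2 difference was 1.40 with an SE of 0.198 (2.64-fold, adjusted p = 0.18). Fgf2 overlaps exons of Nudt6 on the opposite strand, and the sources used here do not give the strand setting of the counting.

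The gene of the oxytocin receptor, Oxtr, was also above the other libraries in both knockout VitD libraries, at 6.71 and 4.22 CPM against 0.463 and 0.736 CPM in WT_VitD and at most 3.57 CPM in vehicle. For several other leading genes the knockout level lay near the vehicle level and the WT_VitD level below it. Insr, the insulin receptor, was at 69.4 and 70.4 CPM in WT_VitD, 112 and 146 CPM in Tet2KO_VitD and 118 to 141 CPM in vehicle. Tmod1, a tropomodulin that caps actin filaments, was at 6.22 and 7.42 CPM, 14.7 and 15.7 CPM, and 15.3 to 19.4 CPM in the same order. Gria1, a glutamate receptor subunit, had 1.26 and 0.396 CPM against 5.03 and 5.54 CPM, with 4.79 to 8.84 CPM in vehicle. The remaining leading genes were Flrt1, Gabre (a GABA receptor subunit), Vldlr (a lipoprotein receptor) and Slc25a27 (a mitochondrial carrier), with log2 differences of 2.34, 1.38, 0.95 and 1.34 and adjusted p-values of 0.457 each.

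Among the genes with lower levels, 6 of the leading 10 code for the contractile apparatus or calcium pump of skeletal muscle: Acta1, Mylpf, Myh4, Tnnt3, Actn3 and Atp2a1. Myh4, a fast myosin heavy chain, was at 10.1 and 94.5 CPM in WT_VitD and at 0.373 and 0.88 CPM in Tet2KO_VitD. Acta1, skeletal alpha-actin, was at 41.2 and 92.5 CPM against 9.38 and 4.49 CPM, with 4.52 to 11.4 CPM in vehicle. WT_VitD was therefore high and uneven, and the knockout libraries lay at or near the vehicle level. All 12 measured skeletal muscle genes were lower in both knockout libraries. Actin genes are nearly identical in their coding sequence, so reads could be shared among them and the Acta1 value is uncertain.

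Lars2, which codes for mitochondrial leucyl-tRNA synthetase, was at 3840 and 1050 CPM in WT_VitD and 136 and 129 CPM in Tet2KO_VitD, with 107 to 218 CPM in vehicle. Only the WT_VitD libraries were high, and they differed from each other by more than 3 times. The predicted gene Gm23935, named after its values were seen, followed the same libraries with 7480 and 1780 CPM in WT_VitD and 118 and 58.8 CPM in Tet2KO_VitD. Lars2 had a log2 difference of -4.21 with an SE of 0.574 (adjusted p = 0.18). Whether the reads counted for Lars2 stem from its messenger RNA was not tested.

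Mdk, Adtrp and Limd2 were close within each group. Mdk, midkine, a heparin-binding growth factor, was at 9.47 and 12.4 CPM in WT_VitD and 3.6 and 3.96 CPM in Tet2KO_VitD, and the vehicle libraries at 7.37 to 14.2 CPM were all above the knockout VitD libraries. Adtrp, a regulator of tissue factor pathway inhibitor, was at 18.4 and 21.7 CPM against 8.57 and 9.33 CPM, and Limd2 at 36.5 and 39.9 CPM against 20.5 and 19.8 CPM. For Adtrp and Limd2 the vehicle levels (7.63 to 9.55 and 15 to 19.7 CPM) were at or just below those of Tet2KO_VitD.

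**Figure D1:**
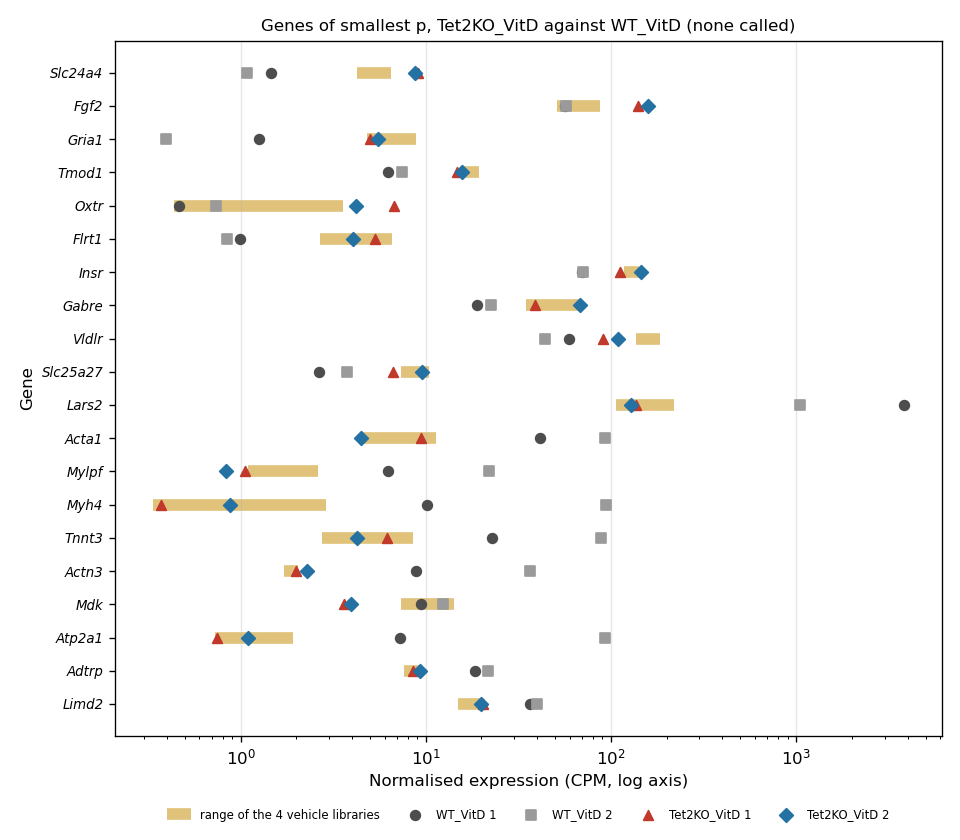
Level of the 10 leading higher and 10 leading lower genes in each VitD library (points; CPM, log axis), with the range of the 4 vehicle libraries as a bar. Slc24a4 and Fgf2 lie above the vehicle range in both knockout libraries, while the skeletal muscle genes are high in WT_VitD alone.

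Promoter sequence is shown for the leading gene of each direction with a single promoter entry in the RefSeq table (build GRCm38.p6), since the substrate of TET2 is methylated CpG. Each line holds the 250 bases upstream of the start, 5′ to 3′ on the gene's strand, with every CpG in capitals. Slc24a4 lies at chr12:102128477-102128726 (plus strand) and Acta1 at chr8:123894776-123895025 (minus strand).
Slc24a4: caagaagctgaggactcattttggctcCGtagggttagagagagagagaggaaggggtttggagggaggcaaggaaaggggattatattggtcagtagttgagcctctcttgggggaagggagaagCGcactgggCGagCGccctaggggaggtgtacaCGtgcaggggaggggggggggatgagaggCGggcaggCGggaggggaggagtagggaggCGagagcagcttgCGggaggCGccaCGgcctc
Acta1: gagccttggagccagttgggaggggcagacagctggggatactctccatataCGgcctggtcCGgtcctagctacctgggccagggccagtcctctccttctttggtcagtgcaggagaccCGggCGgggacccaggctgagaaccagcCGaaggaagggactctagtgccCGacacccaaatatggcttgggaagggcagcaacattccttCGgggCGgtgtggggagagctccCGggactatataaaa
The Slc24a4 promoter held 11 CpG and that of Acta1 held 9. Among the 8349 genes described with 1 entry, the median was 16 CpG with quartiles of 9 and 22, and 98.9% held at least 1. By CpG class the median fitted log2 difference varied little, from -0.06 in the 745 genes with 0 to 3 CpG to 0.037 in the 3595 genes with 18 or more. CpG-rich genes were also longer (median exon length 4941 against 3295 bases). No methylation was measured here.

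Contractile smooth muscle genes were on the whole at or above the WT_VitD level, and the pattern differed between the knockout libraries. Myh11, the smooth muscle myosin heavy chain, was at 2350 and 1410 CPM in WT_VitD and 2510 and 6330 CPM in Tet2KO_VitD. Tet2KO_VitD 2 was at the vehicle level (6100 to 7280 CPM), whereas Tet2KO_VitD 1 was barely above WT_VitD 1. Acta2, smooth muscle alpha-actin, was at 11300 and 7570 CPM against 9330 and 14100 CPM, so the groups overlapped. Of the 20 contractile genes, 7 were higher in both knockout libraries and 0 lower, with a median log2 difference of 0.28 against 0.011 over all genes. The WT_VitD libraries themselves differed by a median of 0.50 on this list.

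The differences in single libraries were of unequal size. Synpo2, an actin-binding protein, was at 328 and 184 CPM against 395 and 696 CPM. Mylk, myosin light chain kinase, was at 749 and 535 CPM against 885 and 1530 CPM. With Tet2KO_VitD 2 as the only knockout library, the log2 differences of Myh11, Synpo2 and Mylk were 1.74, 1.43 and 1.24. In Tet2KO_VitD 1 alone they were 0.42, 0.62 and 0.46. These genes had the smallest p-values of their list in the contrast that holds both knockout libraries. In bulk tissue, a difference in the number of cells of a type and a difference in RNA per cell cannot be told apart.

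Of the 16 measured genes of ion channels and calcium handling, 10 were higher in both knockout libraries and 0 lower, with a median log2 difference of 0.43. Kcnma1, the large-conductance calcium-activated potassium channel, was at 18.6 and 11 CPM in WT_VitD and 25.9 and 36.4 CPM in Tet2KO_VitD. Cacna1c, the pore of the L-type calcium channel, was at 31.8 and 30.1 CPM against 37.6 and 96.6 CPM. Atp2b4, a plasma membrane calcium pump, was at 157 and 146 CPM against 200 and 351 CPM. Kcnma1 was above WT in both libraries, while for Cacna1c and Atp2b4 most of the difference lay in Tet2KO_VitD 2. The genes of this list were long, with a median exon length of 11310 bases against 4372 over all genes, and the relation to length given below was not removed from these values.

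Of 17 receptors for vasoactive hormones, 4 were higher and 2 lower in both knockout libraries, against 22.2% and 22.9% of all genes. Agtr1b, an angiotensin II receptor, was at 1.52 and 1.92 CPM in WT_VitD and 4.53 and 3.39 CPM in Tet2KO_VitD. The alpha-1 adrenergic receptor genes stood in opposite order, Adra1d at 15.9 and 9.62 CPM against 21.5 and 36.6 CPM and Adra1b at 7.35 and 7.64 CPM against 5.09 and 4.58 CPM. None was called.

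Spp1, osteopontin, a phosphoprotein of bone matrix, was at 611 and 718 CPM in WT_VitD, 581 CPM in Tet2KO_VitD 1 and 175 CPM in Tet2KO_VitD 2, against 1.24 to 5.52 CPM in vehicle. Tet2KO_VitD 1 was thus just below WT and Tet2KO_VitD 2 far below, yet all VitD libraries were far above vehicle. Alpl, tissue-nonspecific alkaline phosphatase, was at 50.8 and 151 CPM against 60.7 and 79.1 CPM. Runx2, the master regulator of osteoblasts, was at 3.84 and 5.21 CPM against 3.29 and 4.62 CPM. For Alpl and Runx2 the groups overlapped, and the 95% intervals of the log2 difference ran from -1.47 to 0.4 and from -1.12 to 0.74. Leaving out WT_VitD 2 turned both differences positive (0.46 and 0.045).

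In the wider osteochondrogenic list of 15 measured genes, 4 were higher and 4 lower in both knockout libraries, near the shares of all genes (22.2% and 22.9%), and the median log2 difference was -0.082. Comp, cartilage oligomeric matrix protein, was at 190 and 149 CPM in WT_VitD and 91.4 and 107 CPM in Tet2KO_VitD. Chad, chondroadherin, was at 2.38 and 2.04 CPM against 4.29 and 5.54 CPM, with 5.18 to 10.5 CPM in vehicle. These cartilage matrix genes thus lay in opposite directions.

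Levels of the mineral inhibitors Mgp and Tnfrsf11b were lower in the knockout libraries. Mgp, matrix Gla protein, was at 7460 and 5070 CPM in WT_VitD, 4650 and 2280 CPM in Tet2KO_VitD and 1240 to 2000 CPM in vehicle. Tnfrsf11b, osteoprotegerin, the decoy receptor of RANK ligand, was at 69.4 and 70.9 CPM against 30.9 and 42.9 CPM, with 18.7 to 24.4 CPM in vehicle. Both genes were higher under VitD than under vehicle in every library and lower in the knockout VitD libraries than in WT_VitD. The log2 differences were -0.85 (SE 0.364, adjusted p = 0.467) and -0.93 (SE 0.21, adjusted p = 0.457), and Tnfrsf11b was called by DESeq2 (adjusted p = 0.0455). Entpd1, an ectonucleotidase that hydrolyses ATP, was higher, at 223 and 182 CPM against 281 and 343 CPM. Of the 13 measured genes listed for mineralisation inhibitors and phosphate, 2 were higher and 3 lower in both knockout libraries, against 22.2% and 22.9% of all genes. Their median log2 difference was -0.015.

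No difference was resolved in the vitamin D axis, where the WT_VitD libraries themselves differed by a median of -0.59. Of its 13 listed genes 6 were measured, and 1 was higher in both knockout libraries and 0 lower. Vdr, the vitamin D receptor, which was named outside the rule for naming genes, was at 3.97 and 5.89 CPM in WT_VitD and 4.78 and 4.84 CPM in Tet2KO_VitD. Fgf23, the phosphate-lowering hormone, was at 1.06 and 1.98 CPM against 1.24 and 0.836 CPM and had 0 counts in all vehicle libraries. Both genes overlapped between groups, and at these levels the depth limits the comparison.

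Genes of the modulated smooth muscle state were lower in part. Timp1, an inhibitor of metalloproteinases, was at 326 and 639 CPM in WT_VitD, 249 and 166 CPM in Tet2KO_VitD and 14.6 to 19.7 CPM in vehicle. Igfbp2, which binds insulin-like growth factors, was at 325 and 363 CPM against 195 and 92.1 CPM. Lum, lumican, a proteoglycan of collagen fibrils, was at 725 and 834 CPM against 515 and 378 CPM. In each of these the knockout VitD libraries lay between WT_VitD and vehicle, and DESeq2 called Timp1 and Igfbp2 lower (adjusted p = 0.0223 and 0.0305). In the whole list of 18, 7 were lower and 1 higher in both knockout libraries, with a median log2 difference of -0.47, which was -0.67 without WT_VitD 1 and -0.29 without WT_VitD 2. The median difference was -0.18 in Tet2KO_VitD 1 and -0.69 in Tet2KO_VitD 2.

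**Figure D2:**
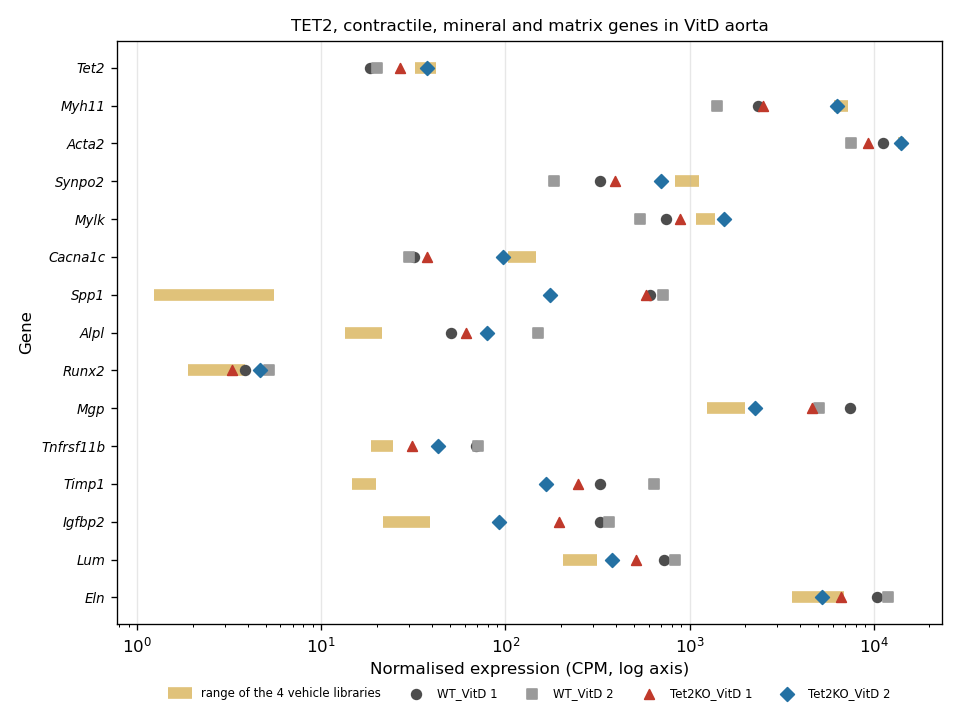
Level of Tet2 and of contractile, mineral and matrix genes in each VitD library (points; CPM, log axis), with the range of the 4 vehicle libraries as a bar. For Myh11, Cacna1c and Spp1, Tet2KO_VitD 1 lies near WT_VitD and Tet2KO_VitD 2 away from it, while Alpl and Runx2 overlap between groups.

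In the extracellular matrix, elastic fibre genes were lower in both knockout libraries in 8 of 16 cases and higher in 1. Eln, elastin, was at 10400 and 12000 CPM in WT_VitD, 6620 and 5220 CPM in Tet2KO_VitD and 3620 to 6900 CPM in vehicle. Efemp2, fibulin-4, which is needed for elastic fibre assembly, was at 151 and 178 CPM against 104 and 109 CPM. Both knockout libraries lay within the vehicle range for these genes, and the WT_VitD libraries above it. The log2 difference of Eln was -0.92 with an SE of 0.368 (adjusted p = 0.467).

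Few collagens were separated, with 1 of 15 lower and 0 higher in both knockout libraries. Col5a2, a chain of the fibril-nucleating collagen V, was at 1020 and 1420 CPM in WT_VitD against 950 and 744 CPM. Mmp2, gelatinase A, was at 297 and 397 CPM against 241 and 251 CPM. Timp4, a further metalloproteinase inhibitor, was in contrast higher than in all other libraries, at 27.5 and 20.8 CPM in WT_VitD, 74.6 and 46.4 CPM in Tet2KO_VitD and 13.1 to 21.2 CPM in vehicle. Timp1 and Timp4 therefore lay in opposite directions, and DESeq2 called both (Timp4 adjusted p = 0.0261). Of the 17 measured metalloproteinase and inhibitor genes, 3 were higher and 5 lower in both knockout libraries, against 22.2% and 22.9% of all genes. Their median log2 difference was -0.34, but -0.62 without WT_VitD 1 and -0.071 without WT_VitD 2.

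Among inflammatory genes, 1 of 16 inflammatory cytokine and adhesion genes was lower and 0 higher in both knockout libraries. Of 20 measured chemokines, 10 were lower and 0 higher in both knockout libraries, with a median log2 difference of -0.76. Cxcl12, which retains leukocytes and progenitors, was at 731 and 944 CPM in WT_VitD, 435 and 486 CPM in Tet2KO_VitD and 166 to 220 CPM in vehicle. DESeq2 called Cxcl12 lower (adjusted p = 0.0228). Cxcl5, a neutrophil attractant, was at 2.65 and 9.79 CPM against 1.3 and 1.63 CPM, and Ccl5, a chemokine for lymphocytes, at 4.24 and 3.34 CPM against 1.55 and 1.28 CPM. The knockout libraries were close to each other for all 3 genes. The chemokine median depended on the WT library, at -1.05 without WT_VitD 1 and -0.42 without WT_VitD 2.

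Lcn2, lipocalin 2, an acute-phase protein, was at 59.1 and 167 CPM in WT_VitD and 49.6 and 56.6 CPM in Tet2KO_VitD. Socs3, the feedback inhibitor of STAT3 signalling, was at 59.6 and 78.6 CPM against 47.6 and 47.5 CPM. Ifi27l2a, an interferon-induced gene, was at 581 and 559 CPM against 229 and 390 CPM. All 3 were far above their vehicle ranges in every VitD library except that Ifi27l2a in Tet2KO_VitD 1 came within 1.5 times of it. Of 16 STAT3 and acute-phase genes, 5 were lower and 1 higher in both knockout libraries. The median log2 difference of that list was -0.35, but -0.49 without WT_VitD 1 and -0.048 without WT_VitD 2. Of 18 interferon-induced genes, 7 were lower and 1 higher, with a median of -0.28. The class II genes H2-Aa and H2-Eb1 were at 84.9 and 102 CPM against 60.4 and 62.3 CPM, and at 66.3 and 79.4 CPM against 38.6 and 48.4 CPM. For these antigen presentation genes, 9 of 15 were lower and 0 higher in both knockout libraries.

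Macrophage genes had lower levels mainly in Tet2KO_VitD 2. The summed level of the 5 markers Cd68, Adgre1, Csf1r, Lyz2 and C1qa was 1840 and 2180 CPM in WT_VitD, 1870 CPM in Tet2KO_VitD 1 and 998 CPM in Tet2KO_VitD 2, against 398 to 632 CPM in vehicle. Trem2, a receptor of lipid-handling macrophages, was at 28.4 and 41.8 CPM against 22.3 and 11.8 CPM. Ccr2, the receptor that brings monocytes into tissue, was at 41.4 and 86.4 CPM against 34 and 31.6 CPM. The neutrophil markers S100a8 and S100a9 were at 9 and 18.6 CPM against 6.09 and 1.58 CPM, and at 13 and 25.2 CPM against 6.96 and 3.74 CPM. Of 19 macrophage and monocyte genes, 8 were lower and 0 higher in both knockout libraries, and of 7 neutrophil genes 5 and 0. The fitted macrophage median was -0.53 without WT_VitD 1 and -0.18 without WT_VitD 2. For the neutrophil list these medians were -1.61 and -0.65. The macrophage list had a median difference of -0.18 in Tet2KO_VitD 1 and -0.71 in Tet2KO_VitD 2, the chemokine list of -0.58 and -0.73, and the antigen presentation list of -0.58 and -0.2. The part of these cells in the chemokine and antigen presentation differences was not tested.

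Cell cycle genes were lower in both knockout libraries in 11 of 20 cases and higher in 0, with a median of -0.80. Tyms, thymidylate synthase, was at 12.5 and 20.3 CPM in WT_VitD against 10.7 and 7.3 CPM, and Rrm2, a ribonucleotide reductase subunit, at 10.4 and 17.2 CPM against 7.64 and 5.54 CPM. WT_VitD 2 was the highest library for both genes. The median of this list was -1.16 without WT_VitD 1 and -0.36 without WT_VitD 2.

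Markers of neighbouring tissues differed between the libraries. The 5 skeletal muscle markers summed to 93.3 and 411 CPM in WT_VitD, 20.2 and 17.4 CPM in Tet2KO_VitD and 12.1 to 30.5 CPM in vehicle. The 5 mesothelium markers summed to 85.6 and 189 CPM in WT_VitD and 50.7 and 43.9 CPM in Tet2KO_VitD, and 8 of 10 mesothelium genes were lower in both knockout libraries. Msln, mesothelin, was at 31 and 76.5 CPM against 17.5 and 11.8 CPM. WT_VitD 2 was the highest library in both tissues, and the median of the mesothelium list was -1.91 without WT_VitD 1 but -0.47 without WT_VitD 2. No marker of either tissue was at 0 in all VitD libraries. The smooth muscle markers themselves summed to 21900 and 14700 CPM in WT_VitD and 19700 and 27300 CPM in Tet2KO_VitD, so the aortic wall was well represented in every library and the groups overlapped.

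Of 16 circadian clock genes, 11 were higher in both knockout libraries than in both WT libraries and 1 lower, where 22.2% and 22.9% of all genes were so. Hlf, an output factor of the clock, was at 14.4 and 7.81 CPM in WT_VitD and 21.6 and 22.6 CPM in Tet2KO_VitD. Per1 and Per3, components of the negative limb, were at 98.7 and 83.7 CPM against 114 and 166 CPM, and at 25.4 and 20.8 CPM against 31.9 and 53.8 CPM. The time of tissue collection is not given in the labels, and none of these genes was called.

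Other single genes of defined lists were separated between groups. Trp53inp1, a p53-induced stress gene, was at 106 and 74.7 CPM in WT_VitD and 320 and 161 CPM in Tet2KO_VitD. Gclc, the catalytic subunit of glutathione synthesis, was at 36.7 and 36.8 CPM against 68.1 and 56.8 CPM, and Tgfbr3, betaglycan, a TGF-beta co-receptor, at 90.7 and 99.4 CPM against 163 and 158 CPM. These genes were above both WT_VitD and the vehicle range in both knockout libraries. DESeq2 called Trp53inp1 higher (adjusted p = 0.0218) but not Gclc (0.175) or Tgfbr3 (0.0873). In the p53 list that holds Trp53inp1, 2 of 14 genes were higher and 6 lower in both knockout libraries. In the oxidative stress list that holds Gclc, 4 of 16 were higher and 4 lower, and in the TGF-beta list that holds Tgfbr3, 5 of 22 were higher and 7 lower, against 22.2% and 22.9% of all genes. Of 13 fibroblast genes, 8 were lower in both knockout libraries and 1 higher, with a median log2 difference of -0.37. Gsn, gelsolin, an actin-severing protein, was higher, at 1710 and 1360 CPM against 3260 and 2680 CPM. The chemokine gene Cxcl14 was lower, at 19.3 and 57.3 CPM against 11.7 and 12.1 CPM. DESeq2 called both (adjusted p = 0.0145 for Gsn and 0.0193 for Cxcl14).

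Ribosomal protein genes were lower, with 18 of 20 listed genes lower in both knockout libraries and 0 higher. Rplp1, a stalk protein of the large subunit, was at 1650 and 1460 CPM in WT_VitD, 994 and 422 CPM in Tet2KO_VitD and 344 to 625 CPM in vehicle. Rps19 was at 563 and 553 CPM against 404 and 189 CPM. The median difference of the list was -0.17 in Tet2KO_VitD 1 and -1.19 in Tet2KO_VitD 2, and 16 of 20 were called lower in Tet2KO_VitD 2 alone, where 2.16% of all genes were. Tet2KO_VitD 2 thus sat at the level of the vehicle libraries, with which it shares the lower number range. Ribosomal protein genes have many near-identical pseudogenes, which could take part of their reads.

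Differences were related to the length of the genes' exons. In the shortest of 4 length classes (57 to 2702 bases, 3453 genes) both knockout libraries were above WT in 9.06% and below in 42.1%, and in the longest (6744 to 123179 bases, 3449 genes) above in 38.9% and below in 7.07%. The median difference from the WT_VitD mean went from -0.16 to 0.15 in Tet2KO_VitD 1 and from -0.32 to 0.21 in Tet2KO_VitD 2. Between the WT_VitD libraries it went from 0.042 to -0.013. Across 13798 genes with a length, Spearman's rho with length was 0.302 for Tet2KO_VitD 1, 0.34 for Tet2KO_VitD 2 and -0.0663 between the WT_VitD libraries, as a description over genes that share libraries and depth. Chemokine and ribosomal protein genes were short (median 1472 and 1730 bases) and clock genes longer than average (5744 bases). Mgp, Spp1 and Timp1 (1187, 1648 and 888 bases) fell in the shortest class. The part of length in the differences of these genes and of all lists was not tested.

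**Figure D3:**
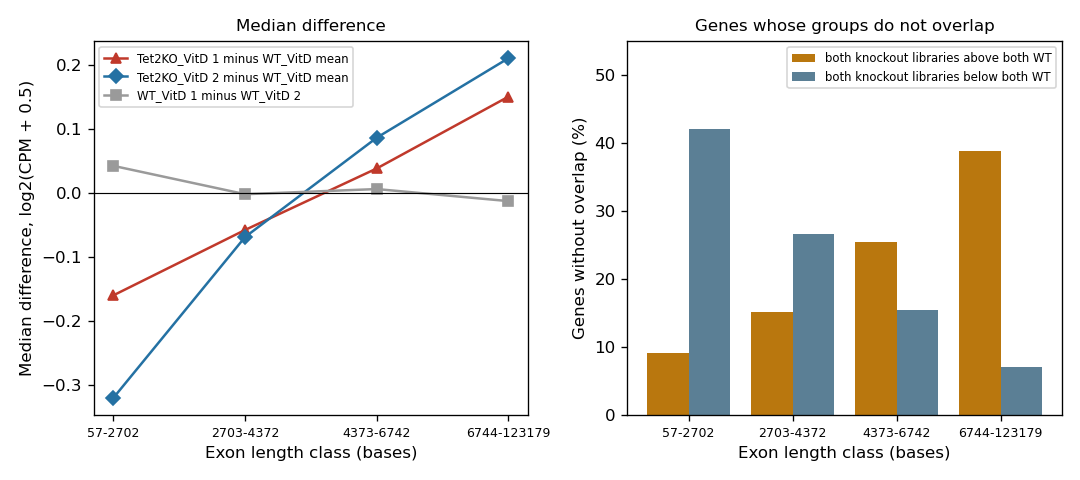
Genes in 4 classes of exon length. The left panel gives the median difference on the log2(CPM + 0.5) scale of each knockout library from the WT_VitD mean and between the WT_VitD libraries, and the right panel the percentage of genes without overlap. The medians of both knockout libraries go from below 0 in short genes to above 0 in long genes, while those of the WT_VitD libraries stay between -0.013 and 0.042.

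Taken alone, Tet2KO_VitD 1 differed from WT_VitD in few genes. Against both WT_VitD libraries, 16 genes were called lower (0.113%) and 0 higher (0%) by edgeR. The 16 were Rrp1, Rrp1b, Rrp7a, Rrp8, Rrp9, Rrp12, Rrp15 and Rrp36, with Emg1, Exosc5 and Dis3 of ribosome assembly and RNA decay, Rpl12, the mitochondrial ribosomal RNAs mt-Rnr1 and mt-Rnr2, and the fat genes Car3 and Ucp1. Rrp1 was at 113 and 103 CPM in WT_VitD, 112 CPM in Tet2KO_VitD 2 and 3.66 CPM in Tet2KO_VitD 1, and it was at 97.5 to 118 CPM over all other libraries. Rpl12 was at 838 and 884 CPM, 354 CPM and 18.5 CPM in the same order, and Rrp7a at 55.2 and 54.6 CPM, 38 CPM and 1.74 CPM.

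The WT_VitD mean of the 8 Rrp genes was 5.93 to 31.6 times the level in Tet2KO_VitD 1. Genes of related function were not all affected, since 1 of 9 fitted Exosc genes of the RNA exosome lay more than 4-fold below the other libraries. Whether the low levels seen in Tet2KO_VitD 1 alone arose in the tissue or in the preparation or counting of that library was not tested. Hsp90aa1, the inducible HSP90, was at 471 and 424 CPM in WT_VitD, 378 CPM in Tet2KO_VitD 2 and 8.94 CPM in Tet2KO_VitD 1 but was not called (adjusted p = 0.07). In each of the 16 genes all other libraries, those of Tet2KO_vehicle included, had higher levels than Tet2KO_VitD 1. In Tet2KO_VitD 2 alone, Rpl12 was also called lower (adjusted p = 0.0268) and the other 15 were not called.

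**Figure D4:**
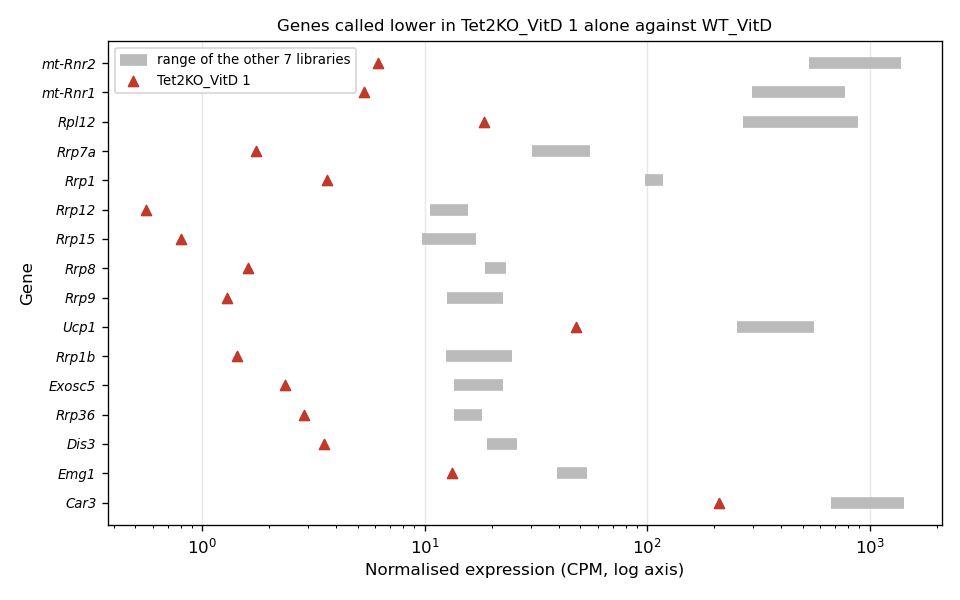
Level in Tet2KO_VitD 1 (triangles; CPM, log axis) of the 16 genes called lower in that library alone, with the range of the other 7 libraries as a bar. In each gene Tet2KO_VitD 1 lies below the whole range of the others, for Rrp1 at 3.66 against 97.5 to 118 CPM.

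Taken alone, Tet2KO_VitD 2 differed in many more genes, with 344 called higher (2.43%) and 306 lower (2.16%). Genes of fat synthesis were among the higher ones. Fasn, fatty acid synthase, was at 155 and 141 CPM in WT_VitD and 112 CPM in Tet2KO_VitD 1 but 3340 CPM in Tet2KO_VitD 2, within the vehicle range of 1070 to 4540 CPM. Acaca, acetyl-CoA carboxylase, was at 47.7 and 77.4 CPM, 60 CPM and 458 CPM in the same order. Mlxipl, the glucose-responsive factor ChREBP, was at 18.4 and 11.4 CPM, 19.1 CPM and 78.2 CPM. The list of 15 lipogenic genes had a median difference of -0.21 in Tet2KO_VitD 1 and 2.2 in Tet2KO_VitD 2.

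Endothelial genes lay the other way, with a median difference of 0.39 in Tet2KO_VitD 1 and -0.95 in Tet2KO_VitD 2. The endothelial receptor Tie1 was at 212 and 215 CPM in WT_VitD, 243 CPM in Tet2KO_VitD 1 and 79.5 CPM in Tet2KO_VitD 2, and the 5 endothelial markers summed to 2580 and 2170, 4170 and 1220 CPM. The knockout libraries thus bracketed WT_VitD for endothelium, and their average hid the difference.

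The genes with the widest gap between the knockout libraries on opposite sides of WT_VitD are given as values, since the gap itself chose them. Higher in Tet2KO_VitD 2 were Fasn, Scd1, Thrsp, Gpd1, Otop1 and Slc6a2. Scd1, stearoyl-CoA desaturase, was at 354 CPM in Tet2KO_VitD 1 and 5380 CPM in Tet2KO_VitD 2, with 806 and 1710 CPM in WT_VitD. Higher in Tet2KO_VitD 1 were Alb, Apoa1, Fgb, Serpinb2, Alox15 and Sele. Alb, albumin, was at 69 CPM in Tet2KO_VitD 1 and 0.792 CPM in Tet2KO_VitD 2, with 5.3 and 2.55 CPM in WT_VitD and 2.73 to 50.4 CPM in vehicle. Sele, E-selectin, an adhesion molecule of activated endothelium, was at 72.9 CPM and 10.6 CPM, with 49.4 and 59.3 CPM in WT_VitD.

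Brown fat genes were low in Tet2KO_VitD 1. Their 5 markers summed to 954 and 890 CPM in WT_VitD, 210 CPM in Tet2KO_VitD 1 and 887 CPM in Tet2KO_VitD 2, and the uncoupling protein gene Ucp1 was at 562 and 382 CPM, 47.8 CPM and 525 CPM. The 5 white fat markers summed to 1020 and 955 CPM, 910 CPM and 1310 CPM. Tet2KO_VitD 1 was therefore the lowest VitD library for both kinds of fat, most of all for brown fat. The part of these tissues in the lipogenic difference was not tested.

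**Figure D5:**
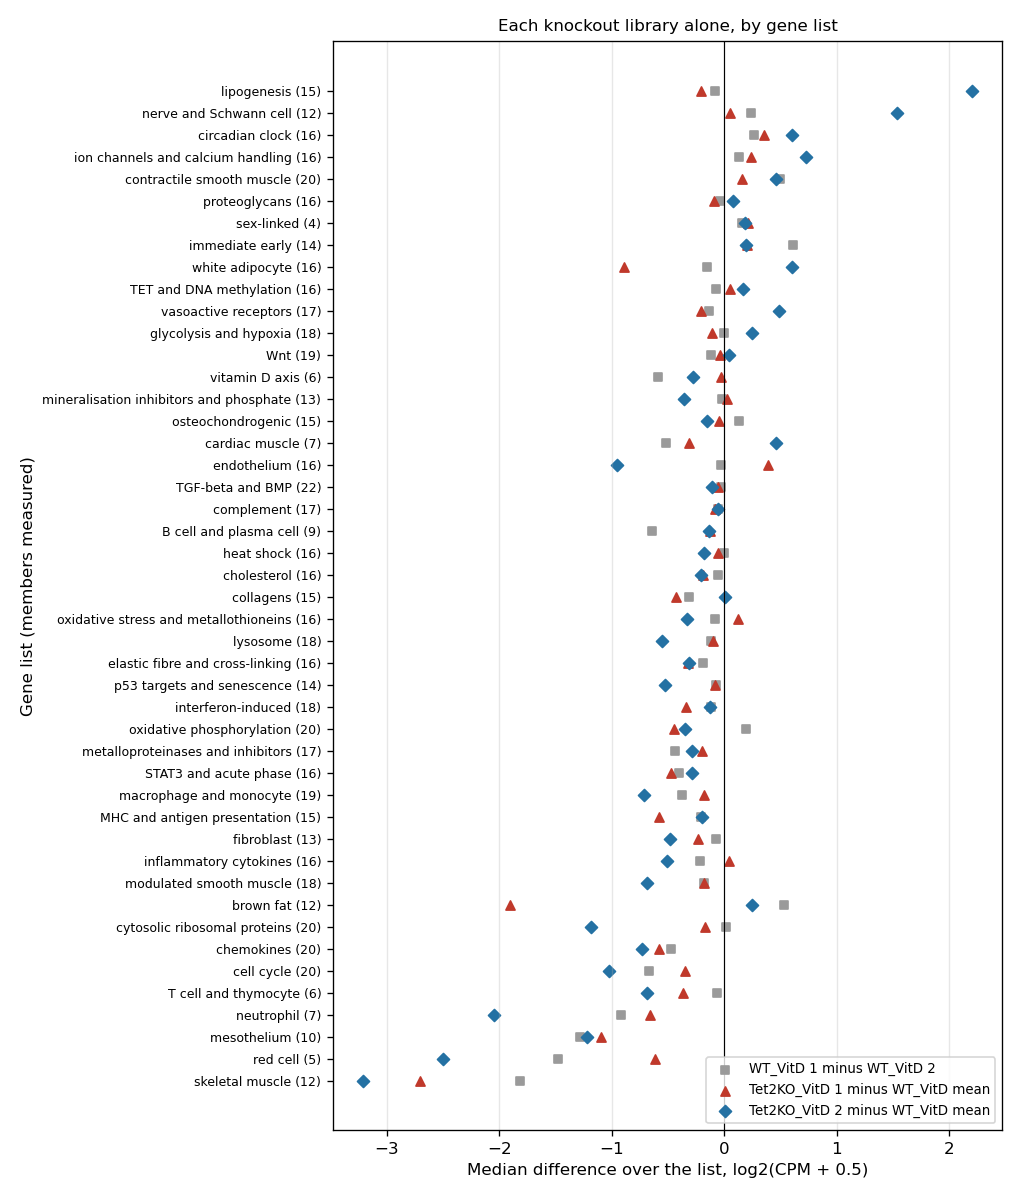
Median difference over each gene list on the log2(CPM + 0.5) scale for Tet2KO_VitD 1 and Tet2KO_VitD 2, each against the WT_VitD mean, and for WT_VitD 1 minus WT_VitD 2. The knockout libraries lie far apart for lipogenesis (-0.21 and 2.2), endothelium (0.39 and -0.95) and brown fat (-1.91 and 0.25), and close together for skeletal muscle and mesothelium, where the WT_VitD libraries also differ.

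The difference between genotypes under VitD was set against that under vehicle as an interaction term for the 171 genes named by rule. By edgeR 0 were called, with 64 at an unadjusted p under 0.05 and a smallest adjusted p of 0.655. DESeq2 called 6 and limma voom 0. Most of the 171 genes were named for a small p in Tet2KO_VitD against WT_VitD, a contrast that enters the interaction. This choice raises the counts of 64 and 6, and the shares over all fitted genes are not given here, so no result is read from them. Slc24a4 had an interaction of 3.06 on the log2 scale (adjusted p = 0.655), Fgf2 of 0.97 and Tnfrsf11b of -1.01 (adjusted p = 0.794 each). For these genes a difference particular to VitD was therefore not established by edgeR.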

How the data were processed

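The authors deposited raw read counts per gene symbol for 8 libraries in 4 groups of 2. Per the submitters' processing notes, Trimmomatic 0.39, STAR 2.7.8a, featureCounts 2.0.2 and build mm10 were used. The annotation release, the strand setting and the handling of multi-mapping reads are not given in the sources used. Sample titles gave the groups and replicate numbers.

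Counts were analysed in R 4.3.3 with edgeR 4.0.16. Genes were filtered with filterByExpr (16194 kept, all genes described among them), normalised by TMM and fitted with 1 mean per group over all 8 libraries (4 residual degrees of freedom). Tet2KO_VitD minus WT_VitD was tested with the quasi-likelihood F test, and p-values were adjusted by Benjamini-Hochberg over all fitted genes with a threshold of 0.05. CPM values are TMM-normalised. Differences of single libraries are on log2(CPM + 0.5), and calls for a single knockout library come from the fit without the other. Alternatives were DESeq2 1.42.0 (run on all genes with a count), limma voom 3.58.1 with quality weights, other normalisations, filters, covariates and blocks, and leaving out each library. The procedure was tested on simulated data.

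Gene coordinates and exon lengths come from GENCODE M21, matched by symbol (46429 symbols with 1 gene). Exons of Tmod1, Mylk, Kcnma1, Atp2a1, Smpd3, Runx2 and Eln, among others, overlap a gene on the opposite strand, so their reads may be mixed. Total counts were 15679274 to 22332149 per library.

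The 46 gene lists and the genes described were chosen with earlier results of these data known. Genes named by rule were fixed regulators and markers, the 10 genes per direction with the smallest p among those without overlap, up to 3 genes per list with the smallest p, and the 6 genes per direction with the widest gap between knockout libraries on opposite sides of WT_VitD. The lists and genes described in the text were picked from these after their values were seen.

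Some genes of the lists are not reported here.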

Additional observations from a re-analysis of the deposited data

How the results depend on the processing

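Counts here cover all genes fitted in each setting, not only the 14177 described. The count of 0 called genes held with DESeq2 size factors or upper quartile factors in edgeR, limma voom, the filter of 1 CPM and a fit of the 4 VitD libraries only. It was 92 with the DESeq2 Wald test, 610 with no filter and 16 with a term for the range of library numbers, which leaves Tet2KO_VitD 1 to carry the contrast. Leaving out single libraries gave counts from 0 to 674. The causes of these changes were not tested, beyond the removal of the library itself. For the interaction among the 171 named genes the count of 0 became 6 with DESeq2 and 42 with no filter, and spanned 0 to 2 over left-out libraries.

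Same-numbered VitD libraries had deviations correlated at -0.119, and other group pairs at -0.161 to 0.157. With 2 libraries per group, these values cannot decide whether the replicate numbers pair the samples. With the replicate number as a block, the count of called genes was 0 (1386 at an unadjusted p under 0.05) and the interaction count 0. With crossed numbers, an alternative chosen after seeing the data, it was also 0 (1630).

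Of 116 genes checked, DESeq2 newly called 28, no filter 72 and the number range 5. Over all genes fitted these settings called 92 of 28001, 610 of 28001 and 16 of 16194. Many of the 116 were named for a small p in this same contrast, so their counts do not stand for all genes. Signs turned mainly in genes where the libraries of 1 group lay far apart. With the term for number range, the log2 difference was -0.012 for Acta2, -0.4 for Fasn, -0.062 for Acaca, -1.83 for Scd1, -1.47 for Thrsp, -2.21 for Gpd1, -3.08 for Otop1, -0.72 for Slc6a2, 0.75 for Alox15, 0.42 for Sele and 0.18 for Tie1. Limma voom and the replicate block gave -0.33 and -0.069 for Gpd1, and -0.76 and -0.34 for Otop1. Over left-out libraries the log2 difference spanned -0.014 to 0.6 for Acta2, -1.15 to 0.46 for Alpl, -0.46 to 0.045 for Runx2, -1.7 to 0.6 for Tnfsf11, -0.4 to 4.48 for Fasn, -0.064 to 2.86 for Acaca, -1.83 to 2.08 for Scd1, -1.47 to 2.36 for Thrsp, -2.21 to 1.64 for Gpd1, -3.08 to 1.1 for Otop1, -0.72 to 3.37 for Slc6a2, -2.3 to 4.15 for Alb, -1.53 to 3.3 for Apoa1, -3.13 to 4.21 for Fgb, -1.56 to 1.99 for Serpinb2, -2.69 to 0.75 for Alox15, -2.37 to 0.42 for Sele, -1.44 to 0.18 for Tie1, -4.88 to 0.036 for Rrp1 and -3.31 to 0.14 for Ucp1.

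Depth limits the comparison for genes near 1 CPM, such as Fgf23 and Tnfsf11.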
